A study of Mus musculus with 12 samples.

Results

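The UDP-glucuronosyltransferases (UGTs), cytosolic sulfotransferases (SULTs) and glutathione transferases (GSTs) were followed in mouse liver after endoplasmic reticulum (ER) stress, in animals without and with ATF6α, an ER membrane protein that is cleaved under stress to release a transcription factor. Members were all genes whose platform symbol began with Ugt1 to Ugt3 plus a or b, Sult1 to Sult6 plus a to e, or Gst plus a class letter (a, k, m, o, p, t or z) and a digit. Each was read from its brightest probe set over the 12 arrays, leaving out probe sets that name several genes. This gave 43 genes of the 18193 on the array, namely 10 UGT, 13 SULT and 20 GST genes. No Ugt1a gene is among the 43, because 3 probe sets for that locus each name the same 8 genes.

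The livers came from 4 groups of 3 mice. Atf6a-/- mice received 1 mg/kg tunicamycin (TM) or its vehicle, 150 mM dextrose, and wild-type (Atf6a+/+) mice received the same. TM blocks N-linked glycosylation and thereby loads the ER with unfolded protein. RNA was taken from whole liver homogenate 34 h after the intraperitoneal injection, although the source field of the labels gives a shorter time than the titles and protocol. All animals were fasted before sacrifice, and they varied in age and sex, which the labels do not give per animal. How the Atf6a allele was made is not given in the sources used here.

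Conjugation is the second phase of drug and hormone clearance in hepatocytes. UGTs sit in the ER membrane with the active site facing the lumen and transfer glucuronic acid from UDP-glucuronic acid, SULTs transfer sulfate from PAPS in the cytosol, and GSTs add glutathione to electrophiles. The genes lie in clusters of related copies, and in liver they are known targets of hepatocyte nuclear factors, of the xenobiotic receptors CAR, PXR and AHR, and of NRF2.

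The arrays set limits on all that follows. On the first principal component (68.3% of the variance) the Atf6a-/- TM livers lay between 114 and 120, and the wild-type TM livers at -12.9, 29.5 and -11.9, so that wild-type TM animal 2 stood apart from its group. The Atf6 gene itself is read by 3 probe sets, of which the brightest was 9.60, 9.81 and 9.23 in Atf6a-/- TM livers and 6.88, 6.85 and 6.60 in Atf6a-/- vehicle livers, against 9.30, 9.72 and 9.49 in wild-type TM livers and 8.54, 8.42 and 8.49 in wild-type vehicle livers. Between vehicle livers the Atf6a-/- level of this probe set differed by -1.71 (limma adjusted p of 0.00611). The other Atf6 probe sets differed there by -0.55 and -0.70 and were not called. After TM, the one at -0.55 was 2.70-fold higher in Atf6a-/- than in wild-type livers. The sources used here do not say whether these probe sets lie in the deleted part, so the level after TM checks no label. Hepatocyte markers moved with the groups as well. The mean of 8 (Alb, Apoa1, Ttr and others) spanned 12.13 to 12.77 in Atf6a-/- TM livers and 14.01 to 14.29 in Atf6a-/- vehicle livers, against 13.62 to 14.00 in wild-type TM livers and 14.12 to 14.24 in wild-type vehicle livers. 6 of the 8 fell in Atf6a-/- livers and 1 in wild-type livers. Of the 3 neutrophil markers measured, 2 rose in Atf6a-/- livers and 1 in wild-type livers, with means of 6.55 to 8.13 after TM against 4.37 to 4.90 after vehicle in Atf6a-/- mice, and of 5.74 to 6.52 after TM against 4.60 to 4.97 after vehicle in wild-type mice. Mpo, which is transcribed mainly in neutrophil precursors, lay between 3.58 and 3.93 in all 12 livers. Of the other marker lists, 3 of 5 Kupffer cell genes fell and 1 rose in Atf6a-/- livers, against 2 and 1 in wild-type livers. Of 5 stellate cell genes 2 fell in Atf6a-/- livers and 1 in wild-type livers, of 5 endothelial genes 1 fell in Atf6a-/- livers, and none of 5 cholangiocyte genes was called. Over all genes, 12.8% fell and 15.2% rose in Atf6a-/- livers, against 3.86% and 3.45% in wild-type livers. In RNA of whole liver, fewer cells of a type and less RNA per cell cannot be told apart, and the part of cell composition in the results below was not tested.

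The promoters of the clustered Ugt2 genes are shown first, because the largest changes fell there and because the size of the difference varied widely between neighbouring genes of the cluster. The RefSeq promoter table (GRCm38.p6) holds 38 of the 43 members, and the 150 bases before the start are printed 5′ to 3′ along the gene's strand. In Ugt2b5, Ugt2b36 and Ugt2b37, capitals mark a run of 24 bases that the 3 genes share without a difference. In Ugt2a3 they mark 2 copies of the HNF1 core GTTAAT. Ugt2b34, which was called in no comparison, has neither and is shown for contrast.
Ugt2b5 (chr5:87140341-87140490, minus strand): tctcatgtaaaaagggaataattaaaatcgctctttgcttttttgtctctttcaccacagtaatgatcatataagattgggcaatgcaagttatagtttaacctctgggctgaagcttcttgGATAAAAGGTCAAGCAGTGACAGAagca
Ugt2b36 (chr5:87092556-87092705, minus strand): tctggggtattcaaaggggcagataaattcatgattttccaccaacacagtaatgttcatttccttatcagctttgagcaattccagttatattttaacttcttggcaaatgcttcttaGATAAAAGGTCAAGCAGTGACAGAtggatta
Ugt2b37 (chr5:87254789-87254938, minus strand): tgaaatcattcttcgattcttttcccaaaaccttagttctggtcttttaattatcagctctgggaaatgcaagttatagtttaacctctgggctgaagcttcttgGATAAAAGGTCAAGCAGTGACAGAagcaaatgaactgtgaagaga
Ugt2a3 (chr5:87337196-87337345, minus strand): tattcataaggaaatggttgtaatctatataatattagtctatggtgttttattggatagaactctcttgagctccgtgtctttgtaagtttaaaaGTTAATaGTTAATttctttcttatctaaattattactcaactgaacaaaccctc
Ugt2b34 (chr5:86906938-86907087, minus strand): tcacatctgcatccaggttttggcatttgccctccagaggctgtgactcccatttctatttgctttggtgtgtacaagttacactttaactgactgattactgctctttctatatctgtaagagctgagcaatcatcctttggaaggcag

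The shared run starts 28 bases before the start of Ugt2b5, 31 before that of Ugt2b36 and 45 before that of Ugt2b37. Among the promoters of all 27025 genes in the table, only these 3 hold the full run, on either strand. A stretch of 16 bases of it is found in 1 more gene, Ugt2b38. Ugt2b5 and Ugt2b37 share a longer run, of 68 bases, whereas the longest run that Ugt2b34 shares with any of the 3 is 8 bases. All 3 genes with the run were called lower after TM in both genotypes, at very different levels of signal. The printed promoters were chosen with the calls known, so this agreement tests nothing. Ugt2a3, without the run, was also called lower in both genotypes, and Ugt2b38, with 16 bases of it, in neither. Ugt2b37 was dim in every group, and the wild-type calls on Ugt2b36 and Ugt2b37 were lost in several alternatives, as given below. The run was noticed in these promoters and not searched for by name, and it is a description of the letters only.

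In Atf6a-/- livers, conjugating enzymes fell broadly after TM. Of the 43 members, 21 fell (48.8%, against 12.8% of all genes) and 5 rose (11.6%, against 15.2% of all genes), by limma with an adjusted p under 0.05 and over 1.5-fold. Among the UGTs 7 of 10 fell, among the SULTs 6 of 13 fell, and no member of either family rose. The GSTs split, with 8 of 20 lower and 5 higher. The median difference was -3.74 on the log2 scale for UGTs, -1.64 for SULTs and -0.17 for GSTs, beside -0.01 over all genes. When the arrays were shifted by the hybridisation spike-ins, the GST median became 0.31 and that of all genes 0.46. The shift moves every gene of an array by the same value, so the GST median minus that of all genes (-0.16) could not change. In 32 members the Atf6a-/- TM and vehicle animals did not overlap, which held for 47.8% of all genes.

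The same dose moved fewer members in wild-type livers. There, 8 of 43 fell (18.6%, against 3.86% of all genes) and 1 rose (2.33%, against 3.45% of all genes). The lower ones were 4 UGTs, 1 SULT and 3 GSTs. All 9 were also among the 26 that changed in Atf6a-/- livers, in the same direction, and no member changed in wild-type livers alone. The count rests on few animals. It was 7 without wild-type TM animal 2, of which 5 were among the 9, 5 without wild-type vehicle animal 2, and 4 without wild-type vehicle animal 3. Median differences were -0.97 for UGTs, -0.20 for SULTs and -0.30 for GSTs, beside -0.02 over all genes. With the spike-in shift those of SULTs and GSTs became 0.15 and 0.05, and the median of all genes became 0.33. Their distances from the median of all genes could not change under this shift.

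**Figure D1:**
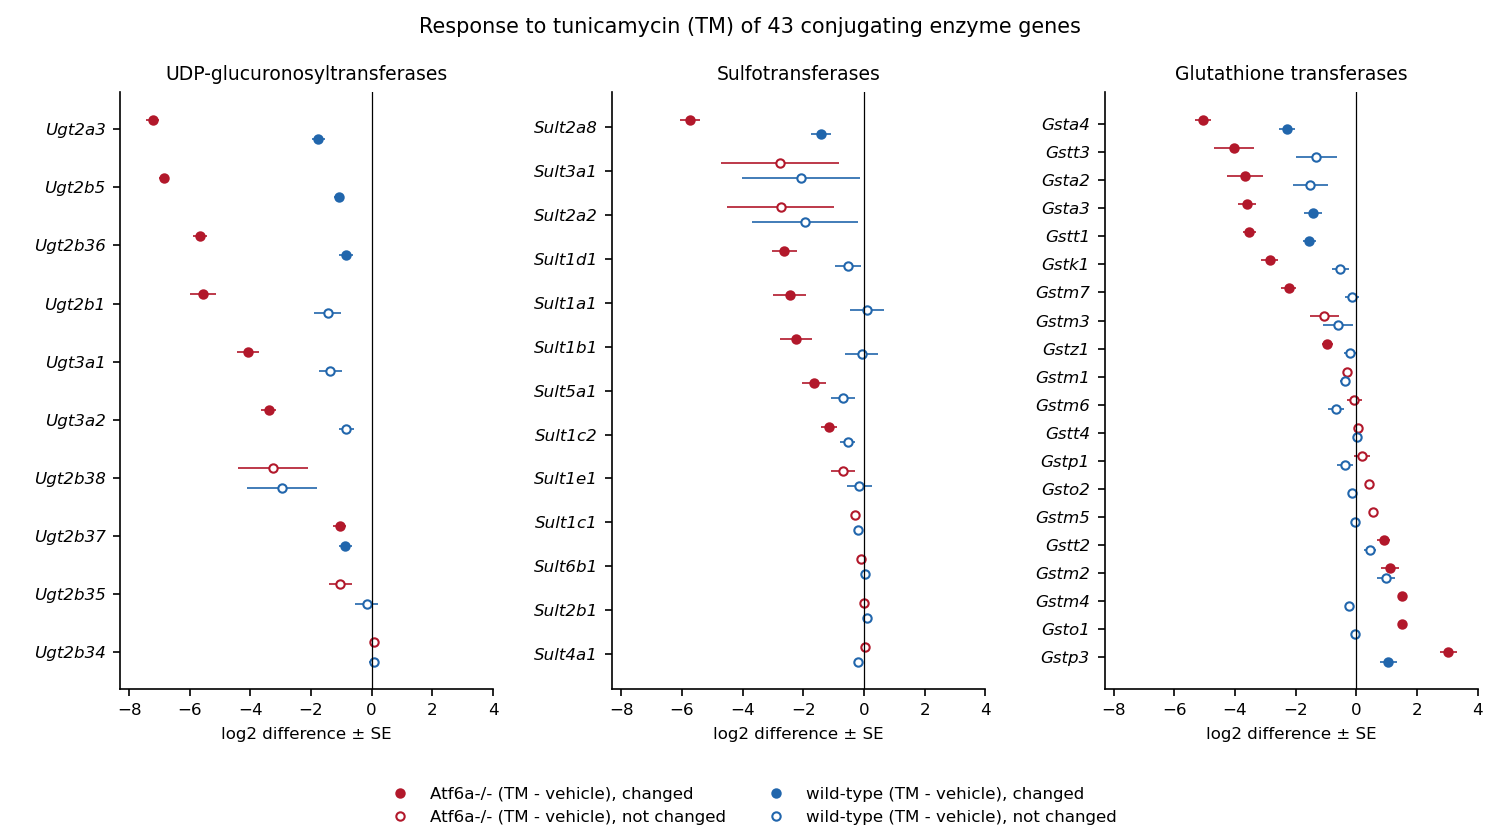
Log2 difference between TM and vehicle (x axis, limma estimate ± SE) for each of the 43 members, by family, in Atf6a-/- mice (red, upper point) and wild-type mice (blue, lower point), 3 animals per group. Filled points passed an adjusted p of 0.05 and 1.5-fold. In Atf6a-/- livers UGTs and SULTs lie between -7.22 for Ugt2a3, whose TM level was dim, and 0.09 for Ugt2b34, whereas GSTs spread from -5.06 to 3.03.

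The UGT2 genes gave the largest falls. Ugt2b5 was 6.54, 6.28 and 6.46 in Atf6a-/- TM livers, against 13.20, 13.49 and 13.16 in Atf6a-/- vehicle livers. In wild-type mice it was 12.26, 11.71 and 12.28 after TM and 12.92, 13.19 and 13.36 after vehicle. Thus a gene near the top of the scale in all other groups was far lower in each Atf6a-/- TM liver, and the TM and vehicle animals did not overlap in either genotype. The difference was -6.85 ± 0.17 (SE) in Atf6a-/- livers, or 116-fold, with an adjusted p of 8.49e-10 from limma, and -1.07 ± 0.17 in wild-type livers, or 2.11-fold, with an adjusted p of 0.00226.

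Ugt2a3, whose human counterpart glucuronidates bile acids, was 4.15, 3.97 and 4.66 in Atf6a-/- TM livers, against 11.76, 11.50 and 11.19 in Atf6a-/- vehicle livers. Wild-type values were 9.61, 9.30 and 10 after TM and 11.23, 11.37 and 11.60 after vehicle. The Atf6a-/- TM mean of 4.26 lay under 4.71, the highest median of any array, below which a group is called dim here and no fold is given. The difference was -7.22 ± 0.22 in Atf6a-/- livers and -1.76 ± 0.22 in wild-type livers (limma adjusted p of 2.75e-09 and 4.81e-04).

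Ugt2b36 was 7.14, 8.15 and 7.77 in Atf6a-/- TM livers, against 13.36, 13.50 and 13.21 in Atf6a-/- vehicle livers. In wild-type livers it was 12.49, 11.93 and 12.54 after TM and 13.00, 13.18 and 13.35 after vehicle. All TM animals were below all vehicle animals in both genotypes. It fell 50.9-fold in Atf6a-/- livers (limma adjusted p of 1.67e-08) and 1.81-fold in wild-type livers (adjusted p of 0.0472), and the wild-type call was lost in 8 of 18 alternatives, each wild-type animal left out included. Ugt2b1 was 6.43, 7.25 and 7.91 in Atf6a-/- TM livers, against 12.39, 13.11 and 12.77 in Atf6a-/- vehicle livers, a 47.1-fold fall. Wild-type livers had 11.02, 10.61 and 11.66 after TM and 11.66, 12.71 and 13.28 after vehicle, so that the highest TM and the lowest vehicle animal met. The wild-type difference of -1.45 ± 0.44 did not pass (adjusted p of 0.0756) but did so in 6 of 18 alternatives. These genes encode enzymes that act on steroids, bile acids and drugs.

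The other UGT2 members had smaller differences or no call. Ugt2b34 was 11.87, 12.45 and 12.35 in Atf6a-/- TM livers and 12.16, 12.22 and 12.02 in Atf6a-/- vehicle livers, against 11.90, 12.01 and 12.39 in wild-type TM livers and 11.97, 11.97 and 12.13 in wild-type vehicle livers. All groups overlapped, and the 95% interval of the difference after TM was -0.26 to 0.44 in Atf6a-/- livers and -0.27 to 0.43 in wild-type livers. Ugt2b35 differed by -1.03 ± 0.38 in Atf6a-/- livers, with no overlap of the TM and vehicle animals and a 95% interval of -1.85 to -0.20. This did not pass (adjusted p of 0.0656) but did so under 7 alternatives, among them cyclic loess, array weights and the Xist covariate (-1.04, adjusted p of 0.00887). Ugt2b37 fell in both genotypes but was dim in all 4 groups, at 3.37 to 3.57 in Atf6a-/- TM livers and 4.26 to 4.89 in Atf6a-/- vehicle livers, and its differences of -1.05 in Atf6a-/- and -0.87 in wild-type livers carry no fold. The Atf6a-/- call on Ugt2b37 was lost with the spike-in shift, and the wild-type call in 7 of 17 alternatives, which include leaving out any wild-type animal but vehicle animal 1.

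In RefSeq the 8 Ugt2 members follow each other on chromosome 5 with no other protein-coding gene between them, in the order Ugt2b34, Ugt2b1, Ugt2b35, Ugt2b36, Ugt2b5, Ugt2b37, Ugt2a3 and Ugt2b38. Ugt2b1, which fell 47.1-fold in Atf6a-/- livers, lies between Ugt2b34, with a difference of 0.09 there, and Ugt2b35, whose difference of -1.03 was called under some alternatives only. The paralogs are alike in sequence, so part of the signal of a probe set may come from a neighbour, and how much cannot be read from these values.

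**Figure D2:**
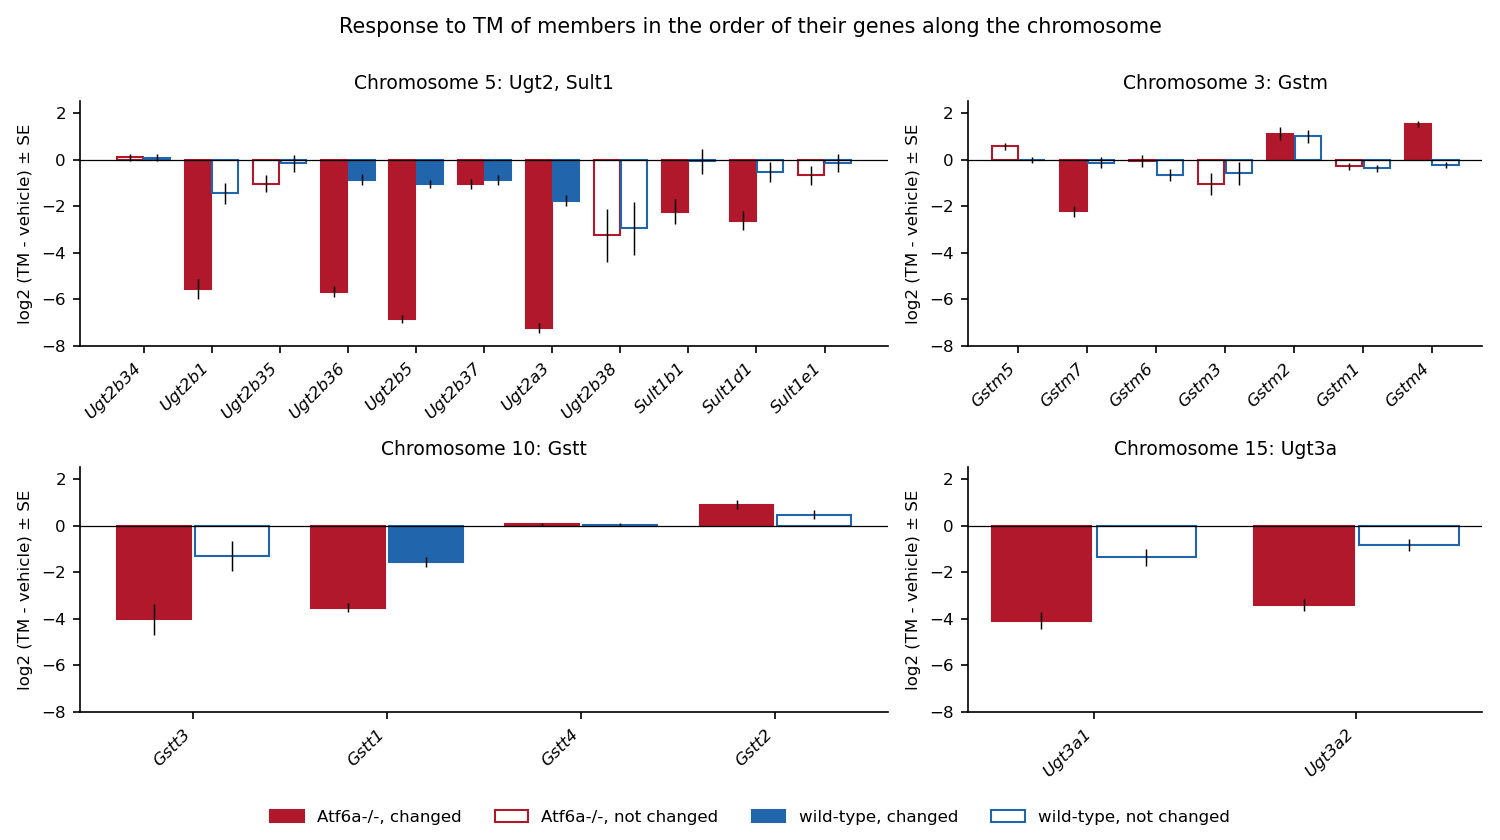
Log2 difference between TM and vehicle (y axis, bar, ± SE) in Atf6a-/- (red) and wild-type (blue) livers for members in the order of their genes along 4 chromosomes, with 3 animals per group. Open bars did not pass the test. On chromosome 5, Ugt2b34 at 0.09 in Atf6a-/- livers stands beside Ugt2b1 at -5.56, and on chromosome 3 Gstm7 at -2.23 stands in a cluster whose last gene, Gstm4, is at 1.51.

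Ugt3a1 and Ugt3a2, whose human counterparts use sugars other than glucuronic acid, fell in Atf6a-/- livers and form a pair on chromosome 15. Ugt3a1 was 5.00, 6.23 and 6.88 in Atf6a-/- TM livers, against 10.14, 10.14 and 10.06 in Atf6a-/- vehicle livers, a 16.9-fold fall. Its other probe set gave a 7.90-fold fall there. Ugt3a2 was 8.76, 8.76 and 9.66 in Atf6a-/- TM livers, against 12.64, 12.45 and 12.28 in Atf6a-/- vehicle livers, a 10.6-fold fall. Neither gene overlapped between the Atf6a-/- groups, and Ugt3a1 spread most within the TM group. In wild-type livers Ugt3a1 differed by -1.36 ± 0.37 (limma adjusted p of 0.0518), which 11 of 18 alternatives called, and the other probe set passed at -1.37 (adjusted p of 0.00941). Ugt3a2 differed there by -0.83 ± 0.26 (adjusted p of 0.094).

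Among the SULTs, Sult2a8, a bile acid sulfotransferase of mouse liver, changed most. It was 6.76, 6.53 and 7.27 in Atf6a-/- TM livers, against 12.47, 12.78 and 12.57 in Atf6a-/- vehicle livers. Wild-type livers had 10.93, 10.52 and 11.20 after TM and 11.40, 12.68 and 12.84 after vehicle. The Atf6a-/- groups lay far apart, and the wild-type groups were separated only narrowly, by vehicle animal 1. It fell 54.0-fold in Atf6a-/- livers (limma adjusted p of 1.64e-07) and 2.67-fold in wild-type livers (adjusted p of 0.023), where the call was lost without wild-type TM animal 2 or wild-type vehicle animal 2 or 3.

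Sult1a1, Sult1b1 and Sult1d1, which sulfonate phenols, thyroid hormones and catecholamines, fell in Atf6a-/- livers and were not called in wild-type livers. Sult1d1 was 9.56, 8.26 and 9.74 in Atf6a-/- TM livers, against 12.57, 11.91 and 10.94 in Atf6a-/- vehicle livers, a 6.13-fold fall (limma adjusted p of 4.39e-04). Sult1a1 was 10.19, 9.52 and 10.98 in Atf6a-/- TM livers, against 13.65, 12.48 and 11.91 in Atf6a-/- vehicle livers, a 5.47-fold fall (adjusted p of 0.00486). Sult1b1 was 5.33, 5.17 and 6.96 in Atf6a-/- TM livers, against 8.53, 7.91 and 7.74 in Atf6a-/- vehicle livers, a 4.72-fold fall (adjusted p of 0.00715). Each gene separated the Atf6a-/- groups, with a spread of more than 1 log2 unit within the TM group. The wild-type differences of the 3 were -0.53 for Sult1d1, 0.10 for Sult1a1 and -0.07 for Sult1b1, with 95% intervals of -1.45 to 0.39, -1.11 to 1.31 and -1.25 to 1.10. Sult5a1 also fell in Atf6a-/- livers, 3.11-fold, as did Sult1c2, with a dim mean of 4.68 in TM livers against 5.83 in vehicle livers.

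The other 7 SULT genes were not called in either genotype. Sult1c1, Sult1e1, Sult2b1 and Sult6b1 were dim in all 4 groups, and Sult4a1 lay between 4.60 and 4.94 in all 12 livers. The last pair, Sult2a2 and Sult3a1, was split within the vehicle groups, as were the levels of Ugt2b38, and these 3 genes are singled out after their values were seen. In all 6 TM livers Sult2a2 and Sult3a1 lay between 2.88 and 3.58. Sult3a1, which sulfonates amines, was 11.22, 3.45 and 3.14 in Atf6a-/- vehicle livers and 9.12, 3.01 and 3.31 in wild-type vehicle livers. Sult2a2, which sulfonates hydroxysteroids, was 10.27, 4.23 and 3.11 in Atf6a-/- vehicle livers and 9.24, 3.37 and 3.15 in wild-type vehicle livers. Animal 1 alone was high in each vehicle group.

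Ugt2b38 had the opposite split. It was 3.70, 3.64 and 4.15 in Atf6a-/- TM livers, against 4.33, 8.04 and 8.90 in Atf6a-/- vehicle livers. In wild-type livers it was 4.62, 4.50 and 4.30 after TM and 4.82, 8.05 and 9.43 after vehicle. Animal 1 was thus the low one in each vehicle group. Xist, transcribed from the inactive X chromosome of female cells, was 12.29 in animal 1 of the Atf6a-/- TM group, 12.39 in animal 1 of the Atf6a-/- vehicle group and 12.19 in animal 1 of the wild-type vehicle group, and 5.37 to 6.68 in the other 9 livers, including all wild-type TM livers. The split of the 3 genes in vehicle livers thus ran with Xist. With the Xist level as a covariate, Ugt2b38 was called lower after TM, by -3.31 in Atf6a-/- livers (limma adjusted p of 0.00347) and by -3.81 in wild-type livers (adjusted p of 0.00897), while Sult2a2 and Sult3a1 were not called. That fit takes 1 Xist slope for all groups. In Atf6a-/- TM livers, however, Ugt2b38 was 3.70 in animal 1 against 3.64 and 4.15, so the slope comes from the vehicle groups. Of 8 genes known for sex-dependent levels in mouse liver, Xist included, C6 alone was called, lower after TM in Atf6a-/- livers (-3.37). The median difference of the 8 was nevertheless -2.37 in Atf6a-/- livers and -1.75 in wild-type livers. Their mean per animal was 6.52 to 7.24 after TM against 9.11 to 9.64 after vehicle in Atf6a-/- mice. In wild-type mice it was 7.02 to 7.80 against 8.74 to 9.46. The list was not split by the sex in which a gene is higher, so its median and mean cannot show a shift toward either sex. Because no wild-type TM liver had high Xist, the TM response of such wild-type animals was not measured.

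**Figure D3:**
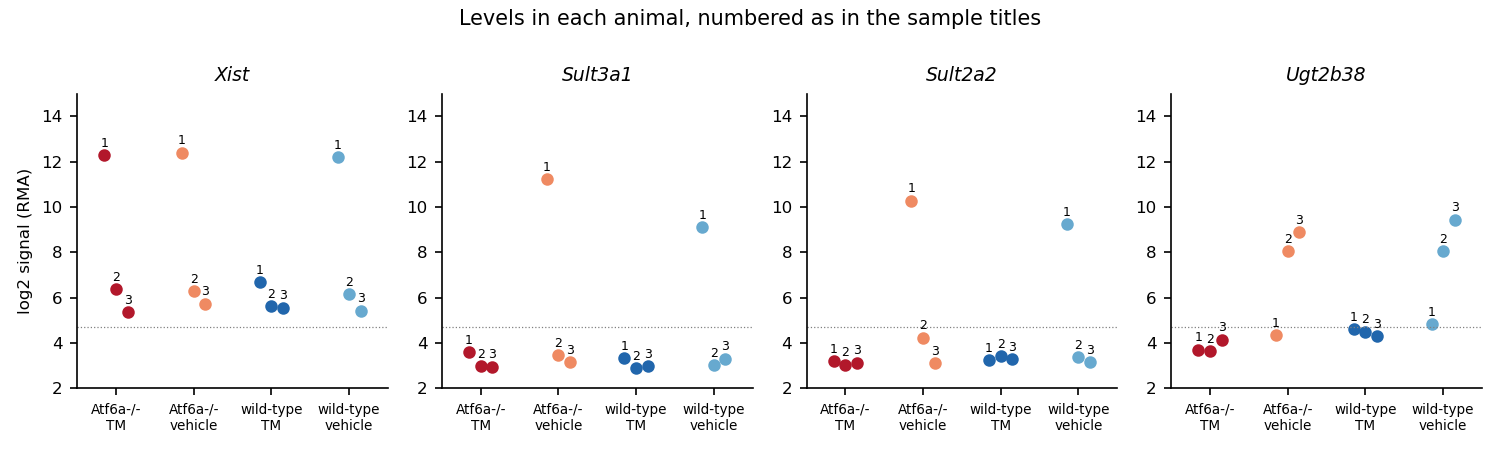
Log2 signal (y axis) of Xist and of the 3 conjugating enzymes that split within the vehicle groups, in each animal, numbered as in the sample titles. The dotted line marks the dim level of 4.71. Sult3a1 and Sult2a2 are above 9 in the vehicle animals with high Xist only, Ugt2b38 is above 8 in the other vehicle animals, and all 3 lie under 4.71 in the TM groups.

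All 3 alpha GST members fell in Atf6a-/- livers. Gsta4, which conjugates the lipid peroxidation product 4-hydroxynonenal, was 6.03, 5.38 and 5.53 in Atf6a-/- TM livers, against 10.79, 10.89 and 10.43 in Atf6a-/- vehicle livers. In wild-type mice it was 8.16, 8.65 and 9.29 after TM and 10.78, 11.02 and 11.17 after vehicle. The groups were apart in both genotypes, with a 33.3-fold fall in Atf6a-/- livers (limma adjusted p of 7.27e-08) and a 4.90-fold fall in wild-type livers (adjusted p of 2.73e-04), the largest called fall of any member there. Gsta3, which in mouse conjugates the epoxide of aflatoxin B1, was 10.23, 9.78 and 9.05 in Atf6a-/- TM livers, against 13.63, 13.31 and 12.92 in Atf6a-/- vehicle livers. It fell 12.1-fold there and 2.67-fold in wild-type livers (adjusted p of 0.0147), a call that was lost without wild-type TM animal 2 or wild-type vehicle animal 3. Gsta2 was 8.82, 7.25 and 6.33 in Atf6a-/- TM livers, against 12.23, 10.93 and 10.29 in Atf6a-/- vehicle livers, a 12.8-fold fall, and differed by -1.51 ± 0.59 in wild-type livers (adjusted p of 0.187). A further probe set that Gsta1, Gsta2 and Gm3776 share was not called in any comparison. It was 11.49, 10.34 and 7.56 in Atf6a-/- TM livers, against 11.89, 10.48 and 9.77 in Atf6a-/- vehicle livers. These overlapped, with a difference of -0.92 (limma adjusted p of 0.598). In wild-type TM livers the shared probe set was 8.39, 12.56 and 10.43.

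The promoter of Gsta3 is given as the member with both an antioxidant response element core (TGACNNNGC) and an HNF1 core (GTTAAT), both in capitals. The HNF1 core lies on the opposite strand and so reads ATTAAC here.
Gsta3 (chr1:21240435-21240584, plus strand): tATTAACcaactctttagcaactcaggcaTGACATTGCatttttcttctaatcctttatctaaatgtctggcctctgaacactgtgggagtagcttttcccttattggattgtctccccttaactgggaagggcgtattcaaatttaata
The response element core starts at -121 and the HNF1 core at -149, counted from the gene's start. Over windows of 250 bases before to 50 after each start, on both strands, GTTAAT was found in 5 of 38 members and in 8.24% of all genes. The 5, namely Gsta3, Sult1a1, Sult1d1, Ugt2a3 and Ugt3a1, were among the 19 members in the table that fell in Atf6a-/- livers, against 0 of 4 that rose and 0 of 15 not called. TGACNNNGC was found in 3 of 38 (Gsta3, Gstm5 and Gstm7), against 14.0% of all genes, the xenobiotic response element core GCGTG in 8 of 38, against 35.2%, and the HNF4 element CAAAGTCCA in Sult1b1 alone, against 0.555%. These matches are descriptions of the windows.

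The theta genes divided by neighbour. Gstt1, which acts on small halogenated compounds, was 8.75, 8.39 and 8.77 in Atf6a-/- TM livers, against 12.61, 12.23 and 11.64 in Atf6a-/- vehicle livers. It was 10.62, 10.41 and 10.91 after TM and 12.22, 12.12 and 12.24 after vehicle in wild-type mice. It fell 11.5-fold in Atf6a-/- livers (limma adjusted p of 2.33e-07) and 2.92-fold in wild-type livers (adjusted p of 9.82e-04). Its neighbour Gstt3 was 7.05, 5.02 and 5.80 in Atf6a-/- TM livers, against 11.55, 9.51 and 8.90 in Atf6a-/- vehicle livers, a 16.3-fold fall, and was not called in wild-type livers (-1.31 ± 0.66, adjusted p of 0.332). Gstt2, at the other end of this cluster on chromosome 10, rose 1.87-fold in Atf6a-/- livers (adjusted p of 0.00408), a call that was lost with arrays shifted by the reference genes Btf3 and Ppia.

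Gstk1, a GST of mitochondria and peroxisomes, was 8.96, 8.42 and 8.50 in Atf6a-/- TM livers, against 12.03, 11.26 and 11.14 in Atf6a-/- vehicle livers. It fell 7.21-fold there (limma adjusted p of 9.16e-06) and differed by -0.53 ± 0.28 in wild-type livers (adjusted p of 0.364). Gstz1, the maleylacetoacetate isomerase of tyrosine breakdown, fell 1.93-fold in Atf6a-/- livers (adjusted p of 0.00242), a call that was lost with the spike-in shift.

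The 5 members that rose were all GSTs. Gstp3 rose in both genotypes, and was 10.80, 10.58 and 11.72 in Atf6a-/- TM livers, against 8.43, 7.91 and 7.67 in Atf6a-/- vehicle livers. The wild-type values were 9.62, 9.30 and 9.93 after TM and 8.63, 8.38 and 8.64 after vehicle. The rise was 8.15-fold in Atf6a-/- livers (limma adjusted p of 5.59e-06) and 2.09-fold in wild-type livers (adjusted p of 0.0416), and the wild-type call was lost in 6 of 18 alternatives, without wild-type TM animal 1 or 3 and without any wild-type vehicle animal among them.

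Gsto1, an omega GST with thioltransferase and dehydroascorbate reductase activity, was 12.65, 12.58 and 12.61 in Atf6a-/- TM livers, against 11.24, 11.12 and 10.91 in Atf6a-/- vehicle livers. In wild-type mice it was 11.05, 11.06 and 10.94 after TM and 11.34, 10.95 and 10.91 after vehicle. Only the Atf6a-/- TM group stood apart, by 2.88-fold from its vehicle group (limma adjusted p of 2.20e-06), whereas the wild-type difference was -0.05 with a 95% interval of -0.32 to 0.22.

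Gstm4 had the same shape. It was 11.46, 11.45 and 11.23 in Atf6a-/- TM livers and 10.03, 9.99 and 9.58 in Atf6a-/- vehicle livers, against 9.48, 9.33 and 9.61 in wild-type TM livers and 9.59, 9.72 and 9.82 in wild-type vehicle livers. It rose 2.85-fold in Atf6a-/- livers (limma adjusted p of 4.19e-06) and differed by -0.24 ± 0.13 in wild-type livers (adjusted p of 0.40). Gstm2 was 11.13, 11.35 and 11.05 in Atf6a-/- TM livers, against 10.63, 10.03 and 9.55 in Atf6a-/- vehicle livers, a 2.15-fold rise (adjusted p of 0.0114) that was lost without Atf6a-/- vehicle animal 3 (adjusted p of 0.0542). Its wild-type difference of 0.99 ± 0.29 did not pass (adjusted p of 0.0653) but did so, after adjustment, under 6 alternatives, among them the shifts by reference genes and by spike-ins, cyclic loess and leaving out wild-type TM animal 3.

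Within the mu cluster of chromosome 3, Gstm7 went the other way. It was 7.54, 7.20 and 7.19 in Atf6a-/- TM livers, against 9.98, 9.55 and 9.08 in Atf6a-/- vehicle livers, a 4.69-fold fall (limma adjusted p of 2.07e-05). A dimmer probe set for Gstm7 differed by 0.27 and was not called, so that the 2 readings of this gene disagree. Gstm1, a mu GST of liver, was 13.29, 13.42 and 12.99 in Atf6a-/- TM livers and 13.74, 13.63 and 13.19 in Atf6a-/- vehicle livers, against 13.02, 13.22 and 13.19 in wild-type TM livers and 13.61, 13.45 and 13.49 in wild-type vehicle livers. No call was made on any of its 4 probe sets, and the 95% interval of the difference was -0.61 to 0.04 in Atf6a-/- livers and -0.69 to -0.04 in wild-type livers. Gstp1, a major GST of mouse liver, differed by 0.19 in Atf6a-/- livers, with an interval of -0.36 to 0.75. Gstm3, Gstm5, Gstm6, Gsto2 and Gstt4 were not called either, with Atf6a-/- differences of -1.06 for Gstm3 to 0.56 for Gstm5, and Gsto2 and Gstt4 were dim in all 4 groups.

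**Figure D4:**
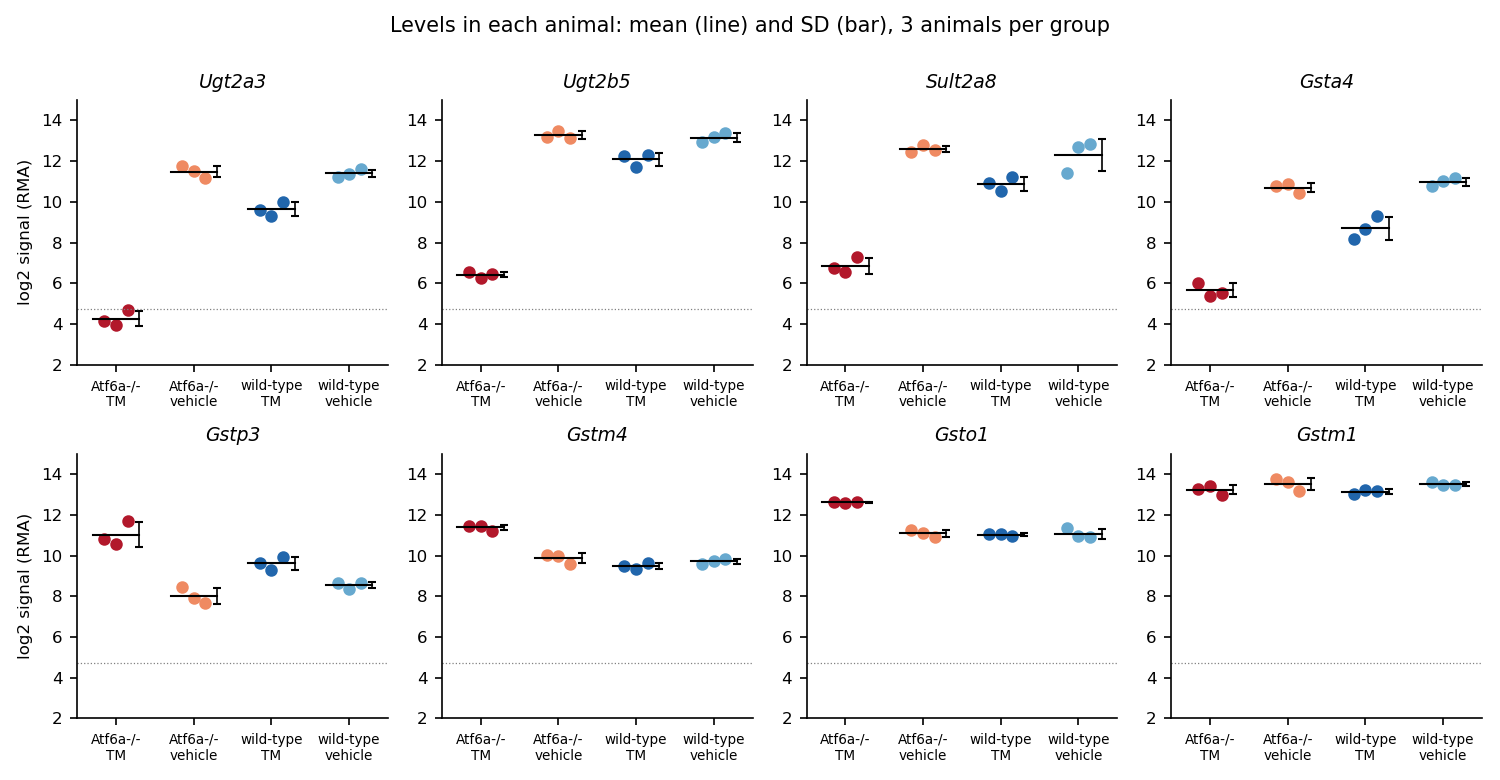
Log2 signal (y axis, as deposited) of 8 members in each animal of the 4 groups, with the group mean (line) and SD (bar), 3 animals per group. The dotted line marks the dim level of 4.71. Ugt2a3, Ugt2b5, Sult2a8 and Gsta4 are lowest in Atf6a-/- TM livers and intermediate in wild-type TM livers, Gstm4 and Gsto1 are high in Atf6a-/- TM livers alone, and Gstm1 lies between 12.99 and 13.74 throughout.

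Which responses differed by genotype was tested as the interaction, the Atf6a-/- response minus the wild-type response. It was called for 16 of 43 members, of which 13 were more negative in Atf6a-/- livers (30.2%, against 6.69% of all genes) and 3 more positive (6.98%, against 7.56% of all genes). The negative ones were 6 of 10 UGTs, 2 of 13 SULTs and 5 of 20 GSTs, and the positive ones were Gstp3, Gstm4 and Gsto1. Among the 9 members that changed in both genotypes, 8 had a called interaction, Ugt2b37 being the exception. Of the 17 that changed in Atf6a-/- livers alone, 8 had one, so for the other 9 the difference between genotypes did not pass its own test. Some of these 9 were called under alternatives. Sult1a1 passed under each alternative normalization and scaling, and with array weights, the replicate block and the Xist covariate, among others. With single animals left out, Sult1a1 passed in some fits and not in others. Gsta2, Gstt3, Gstz1 and Sult1b1 passed with array weights and with the shift by Btf3 and Ppia. Gsta2 and Gstt3 passed with the Xist covariate as well. The 4 largest were Ugt2b5 (-5.78 ± 0.24), Ugt2a3 (-5.46 ± 0.30), Ugt2b36 (-4.81 ± 0.33) and Sult2a8 (-4.34 ± 0.47), with limma adjusted p of 3.35e-07, 2.08e-06, 7.76e-06 and 1.71e-04. Without wild-type TM animal 2 the count was 19. The call on Sult1d1 (-2.09 ± 0.59, adjusted p of 0.0441) was lost in 9 of 23 alternatives, each of them an animal left out, with only Atf6a-/- TM animal 3, Atf6a-/- vehicle animal 3 and wild-type TM animal 2 not needed for it.

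After TM, Atf6a-/- livers differed from wild-type livers in 25 members, a comparison that shares its TM animals with both responses above. Atf6a-/- livers were lower for 18 (41.9%, against 8.45% of all genes) and higher for 7 (16.3%, against 11.3% of all genes). The lower ones were 6 UGTs, 4 SULTs and 8 GSTs, and the higher ones were all GSTs. Ugt2b5 was 50.4-fold lower in Atf6a-/- TM livers, Ugt2b36 24.8-fold, Sult2a8 16.4-fold and Gsta4 8.30-fold, with no overlap of the animals. Gstm4 was 3.75-fold higher, Gsto1 3.02-fold and Gstp3 2.67-fold. Gstm2 (1.97-fold higher, limma adjusted p of 0.0324) lost its call in 8 of 18 alternatives, among them leaving out any Atf6a-/- TM animal or wild-type TM animal 1 or 3. Sult1b1 (3.47-fold lower, adjusted p of 0.0358) lost it in 6, among them leaving out animal 1 or 2 of the Atf6a-/- TM group or 1 or 3 of the wild-type TM group, and Sult1d1 lost it without Atf6a-/- TM animal 2 or wild-type TM animal 3. The share of higher among called members was 28.0% as deposited, 12.0% with arrays shifted by the reference genes Btf3 and Ppia, and 34.6% with the spike-in shift.

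Before stress, the genotypes were not told apart in any member. Atf6a-/- and wild-type vehicle livers differed by limma in 0 of 43 members, against 0.0055% of all genes, which is 1 gene. That gene is Atf6 itself, read from its brightest probe set. At an unadjusted limma p under 0.05, 1 of 43 members passed (Gstm2), against 2.74% of all genes. The methods' t-test after adjustment called 0. The largest differences were 0.86 ± 0.29 for Gstm2 and 0.79 ± 1.94 for Sult3a1, which had the split within groups given above. The 95% interval for Ugt2b5 was -0.24 to 0.49 and for Gsta4 -0.85 to 0.27.

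The genes that feed or follow the 3 families were counted over lists. For scale, 12.8% of all genes fell and 15.2% rose in Atf6a-/- livers, against 3.86% and 3.45% in wild-type livers. Of 10 genes for glucuronidation, 3 fell and 1 rose in Atf6a-/- livers, against 1 and 1 in wild-type livers. Gusb, the glucuronidase that reverses the reaction, fell by 2.33 on the log2 scale in Atf6a-/- livers and by 1.00 in wild-type livers, while of the phosphoglucomutase genes Pgm1 fell by 2.03 and Pgm2 rose by 2.44 in Atf6a-/- livers. Ugdh, which makes UDP-glucuronic acid and was picked out after its value was seen, fell by 1.49 in Atf6a-/- livers. Of 8 genes for sulfonation, 4 fell and 1 rose in Atf6a-/- livers, against 0 and 1 in wild-type livers. Papss1, a synthase of the sulfate donor PAPS, rose by 1.19 in Atf6a-/- livers and by 1.70 in wild-type livers, and the sulfate transporter Slc26a1 fell by 2.93 in Atf6a-/- livers, with a wild-type difference of -0.03.

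Of 16 genes for glutathione synthesis and further glutathione enzymes, 9 fell and 3 rose in Atf6a-/- livers, against 4 and 1 in wild-type livers. Mgst1, the microsomal GST, fell by 3.43 in Atf6a-/- livers and differed by -0.42 in wild-type livers. Glo1, the glyoxalase that uses glutathione, fell by 2.93 in Atf6a-/- livers and by 1.31 in wild-type livers. The γ-glutamylcyclotransferase Ggct rose by 2.48 in Atf6a-/- livers and by 1.14 in wild-type livers. Chac1, which degrades glutathione, rose by 1.62 in Atf6a-/- livers and differed by 1.67 in wild-type livers (limma adjusted p of 0.112). Of 12 other conjugating enzymes, 7 fell in Atf6a-/- livers and 2 in wild-type livers, and none rose. The largest falls were those of the methyltransferases Inmt (-7.50) and Hnmt (-5.21, to a dim level).

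Of 7 exporters of conjugates, 3 fell and 1 rose in Atf6a-/- livers, and none was called in wild-type livers. In Atf6a-/- livers Abcc4, which exports conjugates to blood, rose by 3.57, Abcc6 fell by 3.94 and Abcc3 fell by 2.53. Of 16 regulators, 10 fell and 1 rose in Atf6a-/- livers, against 5 and 0 in wild-type livers. Ppara, a receptor for fatty acids, fell by 4.91 in Atf6a-/- livers and by 1.20 in wild-type livers. Nr1i3, which encodes CAR, fell by 4.81 in Atf6a-/- livers and differed by -0.92 in wild-type livers (limma adjusted p of 0.106). Nfe2l2, which encodes NRF2, rose by 0.75 in Atf6a-/- livers and differed by -0.45 in wild-type livers. Cebpa, a transcription factor of mature hepatocytes, fell by 3.42 in Atf6a-/- livers and by 1.26 in wild-type livers. These lists were chosen with earlier results of these data known, so their counts describe the genes named and no more.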

How the data were processed

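RNA from 12 mouse livers, 1 animal each, had been hybridised to Affymetrix whole-genome mouse arrays. The deposited values are log2 signals that the authors obtained by RMA, which corrects the background, quantile-normalizes the arrays and summarises the probes of each set. The submitters' processing notes list affy and limma, with versions not given in the sources used here. Quantile normalization gives all arrays 1 distribution, so differences are relative to the bulk of probe sets. Signal is not comparable between probe sets as an amount of RNA, and the number of arrays limits the precision.

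Groups came from the sample labels. The 64 AFFX control probe sets were left out, and limma 3.58.1 in R 4.3.3 was fitted to the other 45037 with 1 mean per group, followed by 5 contrasts, empirical Bayes moderation and Benjamini-Hochberg adjustment within each contrast. A gene was called at an adjusted p under 0.05 and over 1.5-fold. The platform annotation gives 1 symbol for 34945 probe sets, several for 932 and none for 9160. A group mean under the highest array median (4.71) was called dim. The script was tested on simulated data. The limma p-values set a group difference against the spread between these animals, pooled over the 4 groups and moderated over all probe sets.

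Members, gene lists and tests were chosen with earlier results of these data known. In each comparison the text names, per family, the called members that moved most, at most 4 upward and 4 downward, every member called in 1 genotype whose interaction was also called, and, where none was called, the 2 with the largest difference. For gene lists it names at most 2 in each direction. Further members and genes were named after their values were seen. Alternatives covered normalization, scaling, probe set choice, array weights, the fold limit, the methods' t-test, Xist as a covariate, replicate blocks and each animal left out. Promoters were read with Python 3.11.15 and pandas 2.3.3.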

Additional observations from a re-analysis of the deposited data

Results flagged for a closer look

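The response to TM differed between Atf6a-/- and wild-type livers, by the interaction test of limma, in 16 members. The difference between the responses (Atf6a-/- minus wild-type, log2) was -5.78 for Ugt2b5, -5.46 for Ugt2a3, -4.81 for Ugt2b36, -4.11 for Ugt2b1, -2.72 for Ugt3a1 and -2.57 for Ugt3a2 among the UGTs. It was -4.34 for Sult2a8 and -2.09 for Sult1d1 among the SULTs. Among the GSTs it was -2.77 for Gsta4, -2.32 for Gstk1, -2.18 for Gsta3, -2.09 for Gstm7, -1.98 for Gstt1, 1.57 for Gsto1, 1.75 for Gstm4 and 1.97 for Gstp3.

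A signal also appeared in the 3 probe sets that the 8 Ugt1a genes share, which no comparison of the report uses. Their Atf6a-/- TM and vehicle means were 12.21 and 13.21, 12.91 and 13.61, and 11.81 and 13.19, so that they fell by 1.01, 0.70 and 1.38 on the log2 scale (limma differences of -1.01, -0.70 and -1.38, adjusted p of 1.56e-04, 4.94e-04 and 5.67e-05). The wild-type differences of -0.22, -0.12 and -0.35 were not called. No set rule was used to search the groups of 3 animals for single animals that stand apart, and those described above were noticed in the values.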

How the results depend on the processing

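The direction and call of the members named for a comparison were followed under every alternative except the methods' t-test and the fold limits. Both held throughout for 19 of 20 members in the Atf6a-/- response, 6 of 17 in the wild-type response and 16 of 19 between genotypes after TM. They held for 3 of 10 between vehicle groups and 14 of 15 for the interaction. The number of members called after TM in Atf6a-/- livers (26) ranged from 18 to 32 over all alternatives. The methods' t-test after adjustment gave the 18 and did not call Gsta2, Gstm2, Gstt3, Sult1a1, Sult1b1, Sult1c2, Sult1d1 and Sult5a1. Members called by some alternatives only were Gstm1, Gstm3, Gstm5, Gsto2, Gstp1, Sult1c1, Sult1e1, Sult6b1, Ugt2b35 and Ugt2b38 in Atf6a-/- livers, and Gsta2, Gstm2, Gstm3, Gstm6, Gstt2, Sult5a1, Ugt2b1, Ugt2b38, Ugt3a1 and Ugt3a2 in wild-type livers. In wild-type livers (9), the methods' t-test after Benjamini-Hochberg adjustment called 0, and leaving out single animals gave 4 to 9. The same t-test at an unadjusted p under 0.05 and over 1.5-fold called 12, without a share over all genes to set beside it. Between genotypes after TM (25), the methods' t-test called 8, and leaving out single animals gave 19 to 25. For the interaction (16) single animals left out gave 15 to 19 and all alternatives 15 to 21, and between vehicle groups the count was 0 under all alternatives. The methods' t-test and a fit of the compared groups alone could not be given for the interaction. The cause of these changes was not tested.

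Scaling moved the median of all genes. A shift by Btf3 and Ppia moved it by -0.52 for the Atf6a-/- response and -0.43 between genotypes after TM, and the spike-ins moved it by 0.48 and 0.21, with counts of 4 higher and 28 lower against 8 higher and 20 lower members for the Atf6a-/- response. The UGT median stayed negative under each scaling, whereas the GST median between genotypes after TM (0.12) became -0.31 with Btf3 and Ppia. The median of all genes was then -0.43.

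Animal numbers do not pair the samples by the labels, and 8 of 18 same-number pairs had deviations correlated over 0.1 (-0.18 to 0.37). A fit with the number as a replicate block called 28, 9, 25, 0 and 18 members for the Atf6a-/- response, the wild-type response, the genotypes after TM, the genotypes after vehicle and the interaction.

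Signs turned only where no call had been made. For the wild-type response, the spike-in shift gave 0.11 for Gstm4, 0.21 for Gstm7 and 0.30 for Gsto1, quantile normalization again gave 0.04 and the Xist covariate 0.02 for Gsto1, and single animals left out gave -0.32 to 0.10 for Gstm7 and -0.13 to 0.09 for Gsto1. Between vehicle groups, the mean of all probe sets gave -0.01 for Gstm7, and probe sets without a suffix for shared sequence gave 0.06 for Ugt3a1. Single animals left out gave there -0.20 to 0.24 for Gstk1, -0.07 to 0.38 for Gstm7, -0.05 to 0.16 for Gsto1, -1.85 to 2.78 for Sult3a1, -0.24 to 0.57 for Ugt2b1 and -0.05 to 0.14 for Ugt3a2.

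With 3 animals per group and sex not balanced between groups, sex-dependent members were measured least well. Dim groups give no fold, paralogs can share signal, and cell composition, the fasting state and the conflict over the time in the labels limit all values alike.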
